A study of Mus musculus with 17 samples.

Results

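Mouse pituitary tumours that expressed pro-opiomelanocortin (Pomc) far above calcitonin (Calca) were compared between 2 genotypes, Rb1/Trp53/Crebbp and Rb1/Trp53. The libraries were chosen by their own counts: a library entered when its Pomc count exceeded its Calca count, which took 10 of the 17 libraries of the series. The Rb1/Trp53/Crebbp group held 4 tumours, T5 to T8, and the Rb1/Trp53 group held 6, T2 and T5 to T9. Both groups carry the engineered Rb1 and Trp53 alleles, so Rb1/Trp53 tumours, not normal pituitary, are the reference. The label of each sample is a neuroendocrine tumour of the pituitary from a genetically engineered mouse, and the series set out to find genes that depend on Crebbp. Whether an allele is floxed, deleted or heterozygous, what drives recombination, is not given in the sources used here, nor are the sex, age, strain and batch of the mice. The labels also do not say that tumours came from separate mice. The p-values set the genotype difference against the spread between these samples, treated as independent. They could be too small if tumours shared a mouse.

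Crebbp encodes CBP, a histone acetyltransferase and coactivator that binds the transcription factor CREB after cAMP signalling and many other factors, and its closest relative is p300, encoded by Ep300. Pomc is the hormone precursor made by melanotrophs of the intermediate lobe and by corticotrophs of the anterior lobe. The transcription factor Tbx19 specifies both of these cell types and Pax7 marks melanotrophs, the cells from which pituitary tumours of Rb1-deficient mice are known to arise.

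Some of the genes with the largest genotype difference had a short CRE motif, which CREB can bind, near their start, and 4 of those promoters are shown, 3 of genes that rose and 1 of a gene that fell. The sequences are RefSeq promoters of the GRCm38.p6 build, 250 bases before to 50 bases after an annotated start, read 5' to 3' on the strand of the gene. Capitals mark the short CRE motif TGACG, or CGTCA where it lies on the other strand. Cwc22 is at chr2:77946307-77946606 on the minus strand, Tac1 at chr6:7554811-7555110 on the plus strand, Cntn1 at chr15:92127878-92128177 on the plus strand and Lama5 at chr2:180225810-180226109 on the minus strand.
Cwc22: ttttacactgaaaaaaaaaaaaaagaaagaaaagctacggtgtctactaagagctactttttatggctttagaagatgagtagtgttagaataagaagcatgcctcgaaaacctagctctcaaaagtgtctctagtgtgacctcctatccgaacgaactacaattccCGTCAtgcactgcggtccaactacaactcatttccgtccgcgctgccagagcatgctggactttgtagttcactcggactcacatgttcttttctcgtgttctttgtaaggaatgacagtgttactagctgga
Tac1: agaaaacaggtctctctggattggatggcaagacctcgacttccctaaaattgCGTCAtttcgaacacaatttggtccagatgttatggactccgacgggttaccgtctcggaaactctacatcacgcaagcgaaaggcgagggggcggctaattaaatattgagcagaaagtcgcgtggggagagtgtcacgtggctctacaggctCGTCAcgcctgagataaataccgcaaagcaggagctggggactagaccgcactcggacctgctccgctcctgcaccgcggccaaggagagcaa
Cntn1: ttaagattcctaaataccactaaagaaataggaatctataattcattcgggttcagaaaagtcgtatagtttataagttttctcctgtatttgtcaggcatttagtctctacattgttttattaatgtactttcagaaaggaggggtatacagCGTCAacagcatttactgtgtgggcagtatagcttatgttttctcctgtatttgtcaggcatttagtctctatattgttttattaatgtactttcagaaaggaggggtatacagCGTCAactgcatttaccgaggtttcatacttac
Lama5: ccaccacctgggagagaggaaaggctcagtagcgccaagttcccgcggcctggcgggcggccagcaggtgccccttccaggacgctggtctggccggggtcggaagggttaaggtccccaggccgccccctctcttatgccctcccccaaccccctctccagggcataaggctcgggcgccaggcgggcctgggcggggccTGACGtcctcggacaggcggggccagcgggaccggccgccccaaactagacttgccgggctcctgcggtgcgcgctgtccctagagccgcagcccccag

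Cwc22, Tac1 and Cntn1 rose with the Crebbp allele and Lama5 fell. Of the 28 genes with the largest differences, 14 in each direction, 19 matched a promoter by symbol. The full palindrome TGACGTCA was in 0 of them and the short motif was in 5, those of Cwc22, Tac1, Cntn1, Lama5 and Cpz. Cntn1 had 3 promoters, and the motif was only in the 1 shown. These are counts of genes, while the percentages that follow are of promoters. Among all promoters of the table, searched on both strands, 20.8% held a short motif and 1.79% the palindrome, and a palindrome always holds the short motif as well. Promoters of the genes tested here held a short motif in 29.9% of cases. Those of genes that rose held one in 24.2% and those of genes that fell in 24.0%. The palindrome was in 7 of 413 promoters of genes that rose (1.69%) and in 19 of 720 of genes that fell (2.64%), against 3.03% over the tested genes. A match is a run of letters in a window and says nothing of binding.

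Counts on genes came to 8741091 to 19994394 reads per library, with a median of 10435008. Pomc alone took 20.5% to 27.8% of these counts in the Rb1/Trp53 group and 22%, 18.2%, 20.9% and 10.6% in Rb1/Trp53/Crebbp T5, T6, T7 and T8. The Pomc count exceeded the Calca count 439-fold or more inside the rule, the lowest ratio being that of Rb1/Trp53/Crebbp T8, and outside the rule no ratio was above 0.000963. These ratios chose the samples and are not results. Levels are given as CPM, read counts scaled to a common library total with TMM factors, which adjust for library composition, and values of the 4 Rb1/Trp53/Crebbp libraries are always in the order T5, T6, T7, T8. Pairs of libraries of 1 genotype differed by far more than counting noise (chi-square per degree of freedom 8.30 to 60.1 over 21 pairs), so no pair was a repeat deposit of 1 library, while tumours of 1 mouse would also differ in this way.

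Rb1/Trp53/Crebbp T8 stood apart from the other 9 libraries. Markers of pituicytes, the supporting cells of the posterior lobe, and of astroglia summed to 1529.9 CPM in it and to 248 to 448 CPM in the others. Markers of neurons and oligodendrocytes summed to 1289.9 CPM in it and to 248 to 432 CPM elsewhere. Its Gfap level was 150.3 CPM, Slc1a2 210.4, Mbp 486 and Gad1 49.1. The highest levels in any other library were 31.6 CPM for Gfap, 4.41 for Slc1a2, 95.2 for Mbp and 0.858 for Gad1. Some neuropeptide genes too low to test were also high in T8, with Hcrt at 47.0 CPM, Trh at 21.4 and Adcyap1 at 14.7. Their highest levels in any other library were 0.299, 0.224 and 0.245 CPM. Not all neuropeptide genes were high in T8, since Adm and Nmb were lowest there. Which tissue these reads came from was not tested. Values without T8 are given beside counts and genes that it moved most. Hormones and other markers of the anterior lobe summed to 13593 CPM in Rb1/Trp53 T6 and 9572 in Rb1/Trp53 T8 and to 79.6 to 3093 CPM in the other 8. Rb1/Trp53 T7 had 145 CPM of thyroglobulin. Xist was at 1.95 and 4.63 CPM in Rb1/Trp53 T2 and T8 and at 907 to 2365 CPM in the other 8, so the only libraries low in Xist were in the Rb1/Trp53 group. The part of these differences in single results was not tested beyond leaving libraries out and, for the Y-linked genes, a fit with their level as a covariate, in which 311 genes rose and 649 fell and 891 genes were shared with the 1179 of the fit described below.

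**Figure D1:**
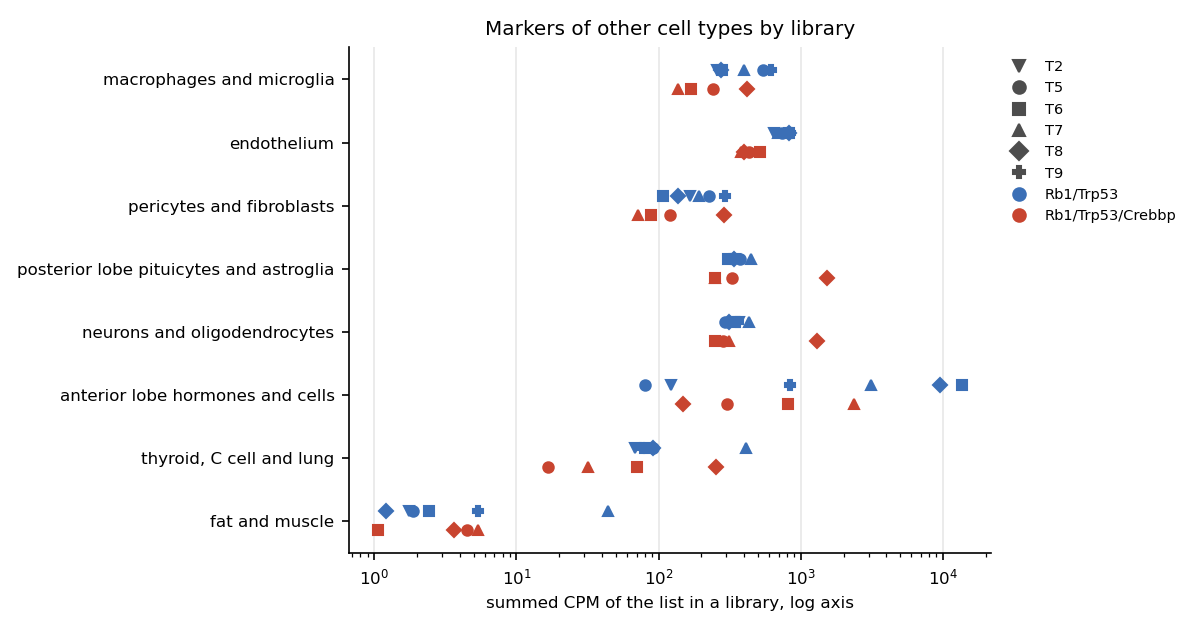
Summed CPM of marker lists of other cell types in each library (log axis), with colour for the genotype and symbol for the tumour number. Rb1/Trp53/Crebbp T8 lies far to the right in the lists of pituicytes and astroglia and of neurons and oligodendrocytes. The endothelial sum, most of it Esm1, lies in each Rb1/Trp53/Crebbp library to the left of each Rb1/Trp53 library.

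Tbx19 and Pax7 were expressed in all 10 libraries, and high Pomc was fixed by the choice of libraries. Pomc ranged from 195491 to 305347 CPM in the Rb1/Trp53 group, with a median of 242583, and stood at 222564, 174742, 208737 and 90834 CPM with the Crebbp allele, where T8 was the lowest of all. Tbx19 was at 294 to 373 CPM (median 338) and at 343, 295, 406 and 377 CPM, overlapping throughout (log2 fold change 0.08 ± 0.10, adjusted p = 0.685). In this and every later comparison the fold change is Rb1/Trp53/Crebbp over Rb1/Trp53 with its standard error, and the adjusted p comes from edgeR's quasi-likelihood test with Benjamini-Hochberg adjustment over all 14010 genes tested. A gene passed, and is said to have risen or fallen, at an adjusted p under 0.05. Pax7 ranged from 194 to 280.0 CPM (median 233) against 173, 194, 175 and 121 CPM, a log2 fold change of -0.50 ± 0.15 that missed the threshold (adjusted p = 0.0603) and passed with DESeq2 (adjusted p = 0.0186).

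The engineered genes did not separate the genotypes. Crebbp itself was at 38.1 to 109 CPM (median 66.0) in the Rb1/Trp53 group and at 41.4, 60.0, 52.9 and 47.6 CPM in the Crebbp group, inside the range of the other genotype (log2 fold change -0.47 ± 0.23, adjusted p = 0.239). Counts over a whole gene do not show whether an exon is missing, so these values do not check the genotype label. Ep300 was at 73.7 to 120.2 CPM (median 84.8) against 91.5, 102, 101 and 103 CPM (0.12 ± 0.14, adjusted p = 0.647). Rb1 did not pass either (0.20 ± 0.12, adjusted p = 0.332), with 33.0 to 50.9 CPM (median 38.7) against 41.3, 54.6, 42.0 and 44.7 CPM. Neither did Trp53, at 12 to 26.7 CPM (median 19.8) against 16.9, 16.4, 15.9 and 15 CPM (-0.28 ± 0.18, adjusted p = 0.351). Of the 20 tested genes nearest to Crebbp, 0 passed edgeR's quasi-likelihood test, as did 0 of the 20 around Rb1 and 4 of the 20 around Trp53, namely A030009H04Rik, Efnb3, Atp1b2 and Cd68. Over all tested genes 8.42% passed, and 20 genes are few for such a share. Of the 4 genes around Trp53, 3 rose and 1, Cd68, fell. Any part of the locus in these calls was not tested.

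Across all genes, 442 rose with the Crebbp allele and 737 fell, 1179 in all, which is 8.42% of the 14010 tested (3.15% higher and 5.26% lower). At least 2-fold changes were 114 rises (0.814% of genes) and 254 falls (1.81%). Without Rb1/Trp53/Crebbp T8 the test called 392 rises and 816 falls, and 859 of the 1179 genes passed again, 321 of them rises. The median log2 fold change of all tested genes was 0.01. In 950 of the genes that passed, the 4 values of one genotype lay wholly outside the 6 of the other, and 9.66% of all tested genes had such separate values. The first 2 principal components of the 10 libraries held 33.9% and 28.7% of the variance of the most variable genes. T8 lay far from the rest at -37.7 on one of them. The number of libraries limits these counts, which ran from 752 when Rb1/Trp53/Crebbp T7 was left out to 1214 when T6 was. In bulk tissue, fewer cells of a type and less RNA per cell cannot be told apart.

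**Figure D2:**
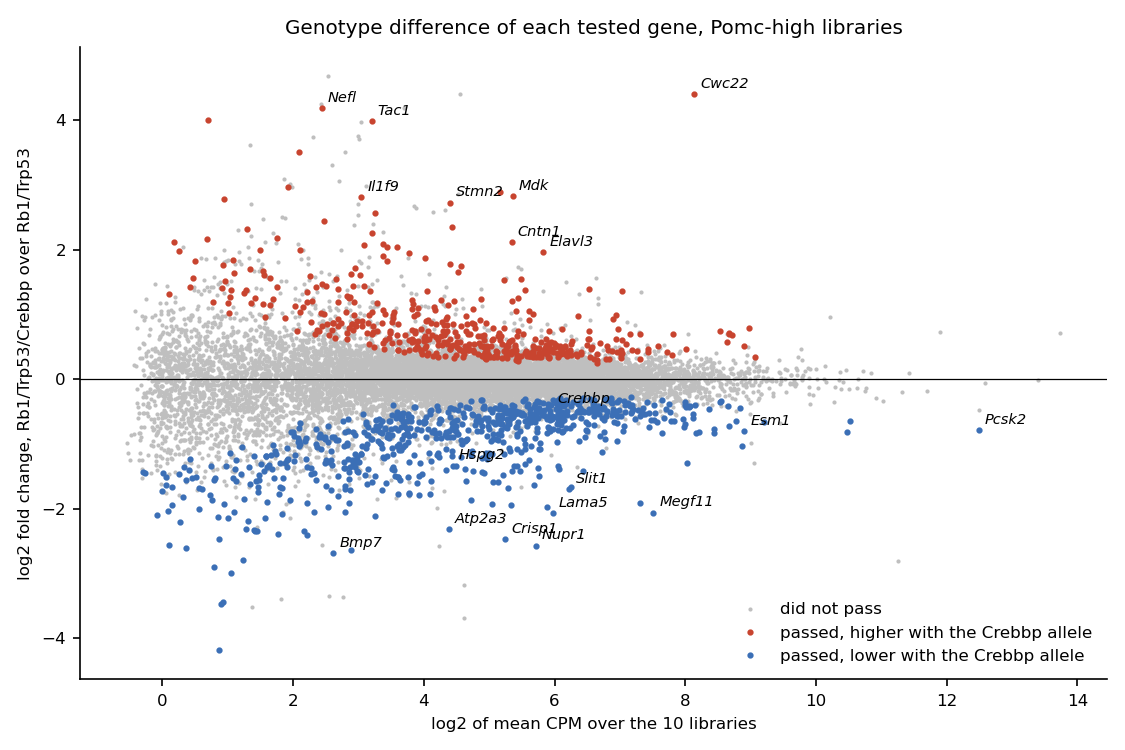
Log2 fold change of each tested gene, Rb1/Trp53/Crebbp over Rb1/Trp53, against the log2 of its mean CPM over the 10 libraries. Grey genes did not pass. Cwc22, with a log2 fold change of 4.40, is the highest of the genes that passed, and Crebbp lies among the grey genes.

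The 14 largest rises and 14 largest falls described next are those among genes that passed, reached a mean of 5 CPM in the higher genotype and had groups that did not overlap. Separate groups were thus a condition of entry, and where they are mentioned for these 28 genes they are not a further result. Cwc22, an RNA splicing factor, had the largest rise. Its level was 28.7 to 33.6 CPM (median 31.2) in the Rb1/Trp53 group and 649.8, 743, 623 and 612 CPM in the Crebbp group. The 2 ranges were narrow and far apart, with a log2 fold change of 4.40 ± 0.09 (adjusted p = 8.59e-12). Reads of Cwc22 may be shared with near-identical copies of the gene, so which copy they came from is uncertain.

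Secreted peptides and growth factors were among the other large rises. Tac1, the precursor of substance P and neurokinin A, was at 0.823 to 3.09 CPM (median 1.09) against 9.17, 36.7, 12.9 and 24.9 CPM (3.99 ± 0.44, adjusted p = 0.000521). Each of the 4 libraries was above each of the 6. Mdk, the heparin-binding growth factor midkine, was at 7.20 to 22.3 CPM (median 10.5) against 103, 61.3, 106 and 67.6 CPM (2.83 ± 0.30, adjusted p = 0.000547). Il1f9, a cytokine of the interleukin-1 family, was at 1.72 to 3.73 CPM (median 1.94) against 14.7, 21.0, 17.2 and 15.3 CPM (2.82 ± 0.22, adjusted p = 5.69e-05). Neither had overlapping groups, and T8 was not the highest library for either.

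Neuronal proteins made up most of the remaining large rises, and here T8 set much of the size. Nefl, the light neurofilament chain of axons, was at 0.374 to 1.10 CPM (median 0.730) against 3.16, 3.99, 2.24 and 40.5 CPM (4.18 ± 0.84, adjusted p = 0.0142). The values of T5 to T7 were 2.24 to 3.99 CPM and only T8 was far higher, so the log2 fold change was 2.21 without T8 (adjusted p = 0.00167). Stmn2, a microtubule regulator of growing neurites, was at 4.93 to 9.05 CPM (median 6.18) against 23.5, 16.5, 27.8 and 104 CPM (2.72 ± 0.48, adjusted p = 0.00841), with a log2 fold change of 1.8 without T8. Omg, a myelin glycoprotein that inhibits neurite growth, was at 0.201 to 1.99 CPM (median 1.04) against 5.70, 2.92, 3.85 and 18.9 CPM (2.96 ± 0.59, adjusted p = 0.0109), with 2.06 without T8. These 3 genes passed the test without T8, at a smaller size.

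Jph3, Galntl1 and Cend1 leaned on T8 more heavily. Jph3, a junctophilin of neurons, was at 0.554 to 1.01 CPM (median 0.939) against 2.14, 1.14, 2.46 and 31.9 CPM (3.51 ± 0.88, adjusted p = 0.0346). Its log2 fold change was 1.21 without T8 (adjusted p = 0.0465), and it did not pass when any 1 of the 6 Rb1/Trp53 libraries was left out (adjusted p 0.0651 to 0.0808). Galntl1, a glycosyltransferase gene, was at 1.86 to 5.03 CPM against 6.62, 7.19, 8.66 and 53.2 CPM (2.56 ± 0.64, adjusted p = 0.0361), 1.23 without T8, and likewise did not pass without any 1 of the Rb1/Trp53 libraries (adjusted p 0.0516 to 0.0821). Cend1, a neuronal protein tied to cell cycle exit, was at 2.70 to 4.53 CPM against 9.47, 6.05, 10.2 and 45.0 CPM (2.26 ± 0.50, adjusted p = 0.0213). It was at 1.21 without T8 and did not pass without Rb1/Trp53 T2 (adjusted p = 0.0507).

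The last 4 rises rested less on T8. Icam5, an adhesion molecule of neurons, was at 0.972 to 1.99 CPM (median 1.32) against 4.99, 5.55, 5.24 and 9.58 CPM (2.18 ± 0.27, adjusted p = 0.000568). Sh3gl3, an endophilin of membrane traffic, was at 3.22 to 6.21 CPM (median 4.29) against 15.6, 20.1, 17.6 and 23.4 CPM (2.09 ± 0.19, adjusted p = 0.000116). Nacad, a homologue of the nascent polypeptide complex, was at 2.62 to 6.64 CPM (median 4.93) against 21.8, 15.7, 16.6 and 25.5 CPM (2.05 ± 0.23, adjusted p = 0.000379). The groups stood apart in each, and without T8 the log2 fold changes were 1.93, 1.99 and 1.92. Cntn1, contactin 1, an axonal adhesion protein, was at 14.3 to 22.7 CPM (median 16.8) against 47.2, 65.7, 48.1 and 141 CPM (2.11 ± 0.30, adjusted p = 0.00248), with 1.64 without T8.

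**Figure D3:**
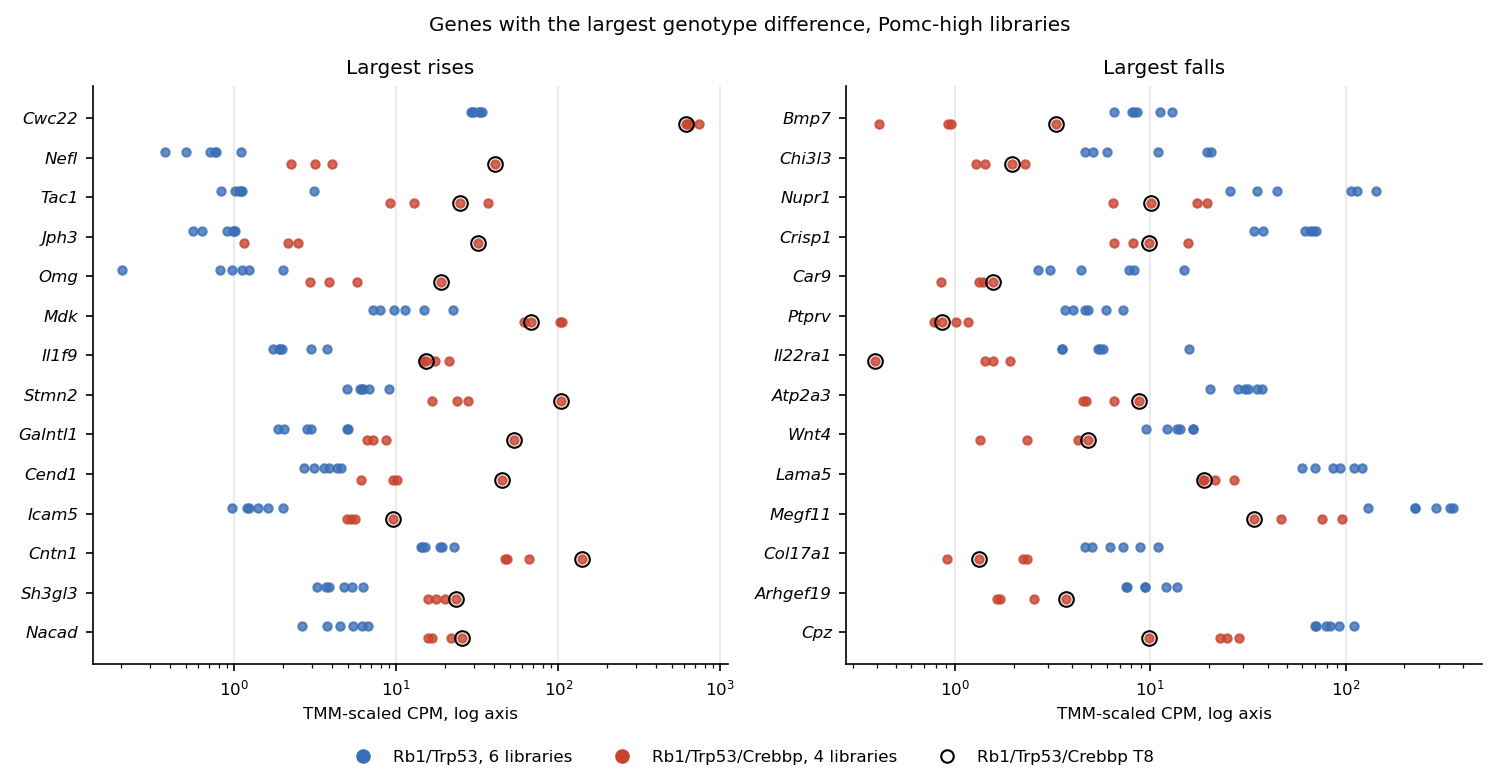
CPM of the 14 genes with the largest rises (left) and the 14 with the largest falls (right) in each of the 10 libraries, on log axes, with Rb1/Trp53/Crebbp T8 circled. The circled point is far to the right for Nefl, Jph3, Galntl1 and Cend1 and among its group for Cwc22, Mdk, Il1f9 and most of the falls.

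Secreted signals and matrix proteins stood out among the falls. Bmp7, a bone morphogenetic protein, was at 6.51 to 12.9 CPM (median 8.41) against 0.407, 0.926, 0.962 and 3.30 CPM (-2.69 ± 0.45, adjusted p = 0.00404). T8 was the highest of the 4 and still below every Rb1/Trp53 library, and without it the log2 fold change was -3.54. Wnt4, a Wnt ligand, was at 9.49 to 16.5 CPM (median 14) against 4.28, 1.35, 2.35 and 4.79 CPM (-2.12 ± 0.31, adjusted p = 0.00168). Lama5, the laminin alpha 5 chain of epithelial and vascular basement membranes, was at 59.8 to 121 CPM (median 90.0) against 27.0, 18.7, 21.5 and 18.8 CPM (-2.07 ± 0.21, adjusted p = 0.000241). Col17a1, a transmembrane collagen of epithelial anchoring, was at 4.66 to 11 CPM (median 6.76) against 0.917, 2.35, 2.24 and 1.33 CPM (-2.06 ± 0.33, adjusted p = 0.00298). Neither Wnt4, Lama5 nor Col17a1 had overlapping groups, as the rule of entry required.

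Cpz, a carboxypeptidase whose protein binds Wnt ligands, was at 70.1 to 110.3 CPM (median 81.7) against 24.7, 28.5, 22.9 and 9.89 CPM (-1.97 ± 0.25, adjusted p = 0.00119). Megf11, a cell surface protein with EGF repeats, was at 131 to 355 CPM (median 259) against 46.6, 75.5, 95.6 and 34.0 CPM (-2.06 ± 0.35, adjusted p = 0.00683). Crisp1, a cysteine-rich secretory protein, was at 34.1 to 70.6 CPM (median 64.2) against 8.15, 15.7, 6.52 and 9.89 CPM (-2.47 ± 0.30, adjusted p = 0.000782). The 3 genes fell in each Crebbp-group library below the lowest Rb1/Trp53 value.

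Enzymes, pumps and receptors made up the other falls. Atp2a3, a calcium pump of the endoplasmic reticulum, was at 20.2 to 37.5 CPM (median 31.1) against 6.52, 4.56, 4.70 and 8.79 CPM (-2.31 ± 0.22, adjusted p = 0.000186). Ptprv, a receptor tyrosine phosphatase, was at 3.68 to 7.26 CPM (median 4.71) against 1.02, 0.783, 1.18 and 0.863 CPM (-2.40 ± 0.28, adjusted p = 0.00042). Arhgef19, a guanine nucleotide exchange factor, was at 7.5 to 13.8 CPM (median 9.37) against 2.55, 1.64, 1.71 and 3.69 CPM (-2.04 ± 0.28, adjusted p = 0.00105). In each of the 3 the groups were separate and the spread within the Crebbp group was small beside the gap. Car9, the hypoxia-induced carbonic anhydrase IX, spread widely among Rb1/Trp53 tumours at 2.67 to 15 CPM (median 6.13) and was at 1.32, 0.854, 1.39 and 1.57 CPM with the Crebbp allele (-2.40 ± 0.50, adjusted p = 0.0122). Il22ra1, a subunit of the interleukin-22 receptor, was at 3.53 to 15.8 CPM (median 5.46) against 1.43, 1.57, 1.92 and 0.392 CPM (-2.34 ± 0.52, adjusted p = 0.0181).

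The last 2 falls came with limits. Nupr1, a stress-induced nuclear protein, was at 25.7 to 144 CPM (median 75.5) against 19.5, 6.48, 17.3 and 10.1 CPM (-2.57 ± 0.61, adjusted p = 0.0328). It did not pass when Rb1/Trp53 T7 or T9 or any 1 of the 4 Crebbp-group libraries was left out (adjusted p 0.0555 to 0.0848). Chi3l3, a chitinase-like protein of macrophages, was at 4.63 to 20.5 CPM (median 8.45) against 1.43, 2.28, 1.28 and 1.96 CPM (-2.64 ± 0.51, adjusted p = 0.00955), and macrophage markers moved the same way, as given with the vascular markers.

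Rasd2 was among the 4 genes with the smallest adjusted p, beside Cwc22, Elavl3 and Il1f9. Rasd2, a small GTPase also called Rhes, was at 70.5 to 100.3 CPM (median 92.7) against 35.1, 28.8, 36.5 and 35.5 CPM (-1.39 ± 0.11, adjusted p = 6.19e-05). The 4 Crebbp-group libraries lay within 28.8 to 36.5 CPM and no library of the other genotype was under 70.5.

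The gene groups were lists drawn up with earlier results of these data known, so each is described by its counts and its median, beside the shares of all genes that passed, 3.15% higher and 5.26% lower. Of 137 genes named by rule that passed, 92 passed in every one of the 10 fits that left out 1 library, and for genes described with their values the libraries that mattered are named. Members named without values include some that did not pass in some of those fits. Of the 1179 genes that passed, 950 had separate groups. Where separate groups are mentioned for list members that passed, they are therefore not a further result.

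Most genes of melanotroph and corticotroph identity did not pass. Of 21 tested, Pomc left out as a gene the rule used, 0 rose and 4 fell (Pam, Drd2, Pcsk2 and Mc3r), with a median log2 fold change of -0.34, or -0.09 without T8. Pcsk2, the convertase that cuts Pomc into melanotroph peptides, was at 5482 to 7889 CPM (median 7024) against 3927, 5161, 4422 and 2486 CPM (-0.79 ± 0.19, adjusted p = 0.0216), and did not pass without Rb1/Trp53/Crebbp T5 (adjusted p = 0.0562). Pam, which amidates peptides, was at 591 to 806 CPM (median 697) against 440.3, 468, 422 and 411 CPM (-0.66 ± 0.10, adjusted p = 0.00229). Both had separate groups. Drd2, the dopamine receptor through which melanotrophs are inhibited, was at 432 to 541 CPM (median 484) against 353, 339.8, 304 and 179 CPM (-0.72 ± 0.16, adjusted p = 0.0183). Mc3r, a receptor for melanocortin peptides, was at 4.86 to 9.16 CPM (median 8.08) against 4.28, 3.99, 4.17 and 3.53 CPM (-0.90 ± 0.22, adjusted p = 0.0229). Drd2 and Mc3r did not pass without Rb1/Trp53/Crebbp T7 (adjusted p 0.0517 and 0.0542), and without T7 the list had 2 falls. The falls of Pcsk2 and Pam were not particular to the Pomc-high libraries. In the 7 libraries outside the rule Pcsk2 (-1.62 ± 0.17, adjusted p = 0.00111) and Pam (-1.05 ± 0.16, adjusted p = 0.00284) also fell. Drd2 did not pass there (0.29 ± 0.61, adjusted p = 0.739), and Mc3r was at 0 CPM.

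Among 21 tested granins and granule proteins, 0 rose and 4 fell, and the median was -0.03. Besides Pam and Pcsk2 these were Chgb, chromogranin B, at 1379.5 to 2043 CPM (median 1641) against 1148, 996, 1052 and 1175 CPM (-0.65 ± 0.13, adjusted p = 0.00839), and Vgf, a secreted neuropeptide precursor, at 268 to 437 CPM (median 346) against 202, 263, 199.6 and 146 CPM (-0.81 ± 0.17, adjusted p = 0.0131). Neither overlapped between the groups. Of 13 tested neuropeptide genes, Calca left out as a gene the rule used, Tac1 rose and Adm and Nmb fell, with 1 fall without Rb1/Trp53 T5, T7 or T8 or without T6 or T7 of the Crebbp group. Adm, adrenomedullin, a vasodilator peptide, was at 29.4 to 72.8 CPM (median 48.7) against 13.2, 14.7, 31.6 and 12.4 CPM, with T7 inside the other group's range (-1.48 ± 0.31, adjusted p = 0.0155).

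Neuronal genes moved in both directions. Of 31 tested genes of neuronal differentiation, 6 rose and 3 fell, with a median of 0.25. Without T8 the counts were 5 and 1 and the median 0.06, and there was also 1 fall without Rb1/Trp53 T2, T7 or T8 or without T5 or T7 of the Crebbp group. Elavl3, a neuronal RNA-binding protein, was at 19.5 to 31.5 CPM (median 26.3) against 99.9, 81.2, 105 and 123 CPM (1.96 ± 0.14, adjusted p = 2.19e-05), and T8 added little, since the log2 fold change was 1.87 without it. Stmn3, a relative of Stmn2, was at 76.3 to 123 CPM (median 100.5) against 169.9, 128, 154 and 217 CPM (0.77 ± 0.16, adjusted p = 0.00942). Stmn2 and Nefl also rose, as did Stmn1 and Elavl2, and the 3 that fell were the transcription factors Myt1, St18 and Pou4f1. The members beyond the 4 of smallest adjusted p were named after their values were seen, here and in later lists.

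Synaptic and neuronal adhesion genes had 6 rises and 1 fall among 36 tested. Their median was 0.97 with T8 and 0.15 without it, while the counts without T8 were 7 and 3. Nlgn1, neuroligin 1, which binds neurexins across the synapse, was at 3.75 to 5.03 CPM (median 4.54) against 12, 11.9, 12.2 and 18.4 CPM (1.60 ± 0.16, adjusted p = 0.000234). Cntn4, a contactin, was at 7.35 to 14.5 CPM (median 10.2) against 26.0, 29.1, 23.8 and 25.7 CPM (1.36 ± 0.17, adjusted p = 0.000642). Nlgn3, neuroligin 3, was at 11.9 to 20.0 CPM (median 14.4) against 27.8, 25.1, 27.0 and 36.4 CPM (0.97 ± 0.16, adjusted p = 0.00303). The groups of these 3 genes did not overlap, and T8 was not the highest library for Cntn4. Astn1 and Cntn6 also rose and Lrfn2, a synaptic adhesion protein, fell.

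Exocytosis genes split about evenly. Of 57 tested, 6 rose and 5 fell (4 and 5 without T8, and 3 rises without Rb1/Trp53 T5, T6 or T7), with a median of 0.23. The falls included calcium sensors and priming factors of the secretory granule. Syt7, a synaptotagmin, was at 76.6 to 88.9 CPM (median 79.4) against 49.4, 43.9, 52.4 and 54.3 CPM (-0.70 ± 0.09, adjusted p = 0.000576). Unc13a, which primes vesicles for release, was at 385 to 488 CPM (median 412) against 210.5, 290.4, 262 and 179.8 CPM (-0.84 ± 0.13, adjusted p = 0.00254). Syt13 fell as well (-0.64 ± 0.10, adjusted p = 0.00223). Syt16, a relative of the synaptotagmins, rose from 5.39 to 8.01 CPM (median 6.28) to 16.4, 9.68, 13.6 and 18.9 CPM (1.18 ± 0.19, adjusted p = 0.00296). No library of one genotype lay within the range of the other for any of these 4.

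Ion channels changed member by member. Of 54 potassium channel genes, 4 rose and 6 fell, and the median was -0.06. The 4 rises were not stable, with 0 to 3 rises when any 1 library other than Rb1/Trp53/Crebbp T5 or T6 was left out, among them 0 without Rb1/Trp53 T7. Kcnk3, a background potassium channel, fell from 40.4 to 75.5 CPM (median 58.1) to 26.3, 19.5, 23.1 and 20.2 CPM (-1.42 ± 0.17, adjusted p = 0.000477). Scn9a, a voltage-gated sodium channel, rose from 2.32 to 12.2 CPM (median 5.45) to 15.2, 21.2, 20.8 and 41.4 CPM (1.95 ± 0.39, adjusted p = 0.0134), with 1.59 without T8. Of 32 tested sodium and calcium channel genes, 1 rose and 1 fell, and without T8 the list held 6 falls. Among 33 receptors for GABA, glycine and glutamate, 2 rose and 0 fell by edgeR's quasi-likelihood test, and 4 rose without T5 or T6 of the Crebbp group. Glrb, the beta subunit of the glycine receptor, was at 26.1 to 30.1 CPM (median 27.7) against 48.2, 69.8, 60.5 and 87.6 CPM (1.25 ± 0.13, adjusted p = 0.000307).

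Genes of monoamine metabolism were low but separate. Th, tyrosine hydroxylase, the first enzyme of dopamine synthesis, was at 0.368 to 1.32 CPM (median 0.592) against 1.32, 3.99, 2.89 and 3.85 CPM (2.17 ± 0.38, adjusted p = 0.00485). The highest Rb1/Trp53 library and Rb1/Trp53/Crebbp T5 were nearly level, and the other 3 were higher. Of the 13 tested genes of that list, Th and Maob rose and Drd2 fell. Maob had a log2 fold change of 0.99, and without T8 0.56 with an adjusted p of 0.0527.

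Axon guidance genes passed the test often in both directions, with 7 rises and 11 falls among 61 tested and a median of -0.02. Without T8 there were 5 rises and 15 falls, and without Rb1/Trp53 T2, T7 or T9 there were 4 rises. Slit1, a secreted ligand of Robo receptors, was at 72.0 to 129 CPM (median 107) against 22.7, 23.9, 42.7 and 38.9 CPM (-1.69 ± 0.23, adjusted p = 0.00159). Plxnd1, a semaphorin receptor of endothelium and neurons, was at 28.5 to 54.4 CPM (median 41.7) against 15.7, 12.1, 15.9 and 15.9 CPM (-1.45 ± 0.18, adjusted p = 0.000596). Epha2, an ephrin receptor, was at 2.82 to 5.96 CPM (median 3.31) against 1.22, 0.570, 0.748 and 0.549 CPM (-2.33 ± 0.35, adjusted p = 0.00209). In the opposite direction Plxna3, another semaphorin receptor, was at 75.4 to 99.3 CPM (median 87.9) against 128, 143, 136 and 107 CPM (0.56 ± 0.10, adjusted p = 0.00558). The 4 genes had separate groups. Efnb3, Epha4 and Unc5d were among the rises in which T8 was by far the highest library.

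The midkine and BMP lists held changes in both directions, and over all genes falls (5.26%) also outnumbered rises (3.15%). In the midkine and pleiotrophin list of 15, Mdk and Cspg5 rose while the syndecan receptors Sdc4 and Sdc3 fell. Cspg5, a neural chondroitin sulfate proteoglycan, was at 17.9 to 22.4 CPM (median 22) against 58.1, 43.6, 56.4 and 88.9 CPM (1.53 ± 0.16, adjusted p = 0.000241). Sdc4 was at 105 to 145 CPM (median 128) against 77.2, 58.2, 77.7 and 62.2 CPM (-0.88 ± 0.12, adjusted p = 0.00122). Of 45 BMP, activin and TGF-beta genes, Smad9 rose and Bmp7, Id2 and Smad3 fell, with a median of -0.08, 6 falls without T8 and 3 rises without T5 or T6 of the Crebbp group. The receptors and most SMADs of that list did not pass. Id2, a target of BMP signalling, was at 28.2 to 53.0 CPM (median 47.9) against 23.2, 25.7, 24.4 and 24.3 CPM (-0.86 ± 0.16, adjusted p = 0.00681).

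Of 40 Wnt genes, 0 rose and 4 fell, with a median of -0.14. These were the ligand Wnt4, the secreted Wnt antagonist Sfrp1, the ligand carrier Wls and the coreceptor Lrp5. Sfrp1 was at 7.12 to 9.38 CPM (median 7.76) against 2.24, 3.77, 3.21 and 3.30 CPM (-1.33 ± 0.19, adjusted p = 0.00138). A ligand and an antagonist thus fell side by side. Without Rb1/Trp53/Crebbp T5 the list had 2 falls. The Notch list had 0 rises and 6 falls among 34 tested and a median of -0.13, with 3 falls without T5, T7 or T8 of the Crebbp group. Notch3, a receptor of vascular smooth muscle and other cells, was at 7.97 to 16.1 CPM (median 10.4) against 5.30, 5.41, 5.56 and 7.54 CPM (-0.92 ± 0.20, adjusted p = 0.0153).

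Basement membrane and epithelial genes held falls in 2 lists. Among 37 laminins, integrins and basement membrane genes, 0 rose and 4 fell, with a median of -0.29, 6 falls without T8 and 2 when Rb1/Trp53 T2, T5, T6, T7 or T9 or T5, T6 or T7 of the Crebbp group was left out. The 2 large falls were Lama5 and Hspg2, perlecan, the heparan sulfate proteoglycan of basement membranes, at 23.4 to 34.5 CPM (median 27.8) against 9.47, 10.5, 9.62 and 15.7 CPM (-1.33 ± 0.17, adjusted p = 0.000638). Col16a1 fell with Col17a1 among 25 collagens, at 15 to 32.2 CPM (median 24.6) against 7.13, 3.06, 4.06 and 13.5 CPM (-1.77 ± 0.38, adjusted p = 0.017), and without T8 the list had 5 falls. Of 41 genes of simple epithelium and tight junctions, 0 rose and 8 fell, with a median of -0.10 and 5 falls without T6, T7 or T8 of the Crebbp group. Cgnl1, a junction protein of the cingulin family, was at 44.8 to 99.7 CPM (median 68.8) against 32.0, 23.4, 29.8 and 19.2 CPM (-1.5 ± 0.23, adjusted p = 0.00318). The claudins Cldn6 (-1.04 ± 0.17, adjusted p = 0.0035) and Cldn9 (-0.81 ± 0.14, adjusted p = 0.00372) also fell with separate groups, while Krt18, Elf3, Esrp1, Tjp3 and Marveld3 fell by less. Cdh13, the lipid-anchored T-cadherin, was the 1 fall among 17 cadherins and catenins, of which 3 fell without T8, at 126 to 203 CPM (median 149) against 68.5, 102, 71.9 and 76.1 CPM (-0.96 ± 0.15, adjusted p = 0.00296).

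Hypoxia response and glycolysis held 0 rises and 10 falls among 43 tested genes, with a median of -0.14, and 9 falls without T8. Lox, a collagen crosslinking enzyme induced by hypoxia, was at 40.9 to 64.9 CPM (median 54.5) against 19.4, 16.2, 12.9 and 32.8 CPM (-1.41 ± 0.23, adjusted p = 0.00411). Hk2, hexokinase 2, was at 50.9 to 71.8 CPM (median 62.1) against 27.9, 26.3, 41.7 and 26.1 CPM (-1.04 ± 0.15, adjusted p = 0.00159). Egln3, an oxygen-sensing prolyl hydroxylase, was at 45.9 to 71.5 CPM (median 57.3) against 32.1, 25.0, 36.9 and 26.9 CPM (-0.92 ± 0.14, adjusted p = 0.00248). Collagen hydroxylase P4ha2 fell by 0.48 on the log2 scale (SE 0.09, adjusted p = 0.00601). The groups did not overlap for any of the 4. Vegfa, Car9, Adm, Pfkfb3, Slc2a1 and Eno2 were the other falls, which encode, among others, an angiogenic factor, a glucose transporter and glycolytic enzymes.

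The unfolded protein response had 0 rises and 7 falls among 44 tested genes, with a median of -0.18. There were 3 falls without T7 or T8 and 4 without T5 of the Crebbp group. Eif2ak3, the stress kinase PERK, was at 71.1 to 84.6 CPM (median 77.7) against 50.9, 59.5, 57.4 and 45.0 CPM (-0.56 ± 0.09, adjusted p = 0.00398). Edem1, which routes misfolded glycoproteins to degradation, was at 37.4 to 50.1 CPM (median 41.6) against 29.7, 32.0, 34.3 and 24.7 CPM (-0.51 ± 0.12, adjusted p = 0.0181). Neither overlapped between the genotypes, and 38 of the 44 genes had a negative fold change, most of them too small to pass.

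Genes of cAMP signalling, the pathway CBP serves, had 0 rises and 4 falls among 40 tested, with a median of -0.24. Pde4a, a phosphodiesterase that degrades cAMP, was at 66.4 to 105 CPM (median 76.5) against 45.5, 34.4, 45.4 and 40.7 CPM (-0.98 ± 0.14, adjusted p = 0.00159). Per2, a clock gene with a cAMP-responsive promoter, was at 51.5 to 91.8 CPM (median 71.2) against 43.1, 48.3, 47.2 and 32.3 CPM (-0.73 ± 0.15, adjusted p = 0.0114). Both had separate groups. Creb5 and Klf4 also fell, and neither passed in 7 of the 10 fits that left out a library. The list had 2 falls without T7 or T8 of the Crebbp group or Rb1/Trp53 T2, T7 or T8, and 9 without T6.

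Chromatin regulators moved little. Of 29 acetyltransferases and coactivators, 0 passed edgeR's quasi-likelihood test, 2 had an unadjusted p under 0.05, and 0 passed in every other fit tried, DESeq2 and limma-voom included, with a median of 0.02. Among 54 deacetylases, methylation enzymes and remodellers, Suv39h1, a histone H3 lysine methyltransferase, and Sin3b rose, 2 members including Hdac7 fell, and each changed by less than 2-fold. This list had 1 rise and 0 falls without T8, 0 of either without Rb1/Trp53 T7, and 0 to 2 rises and 0 to 3 falls over all fits that left out 1 library. Suv39h1 was at 18.6 to 25.8 CPM (median 22) against 34.1, 29.7, 27.6 and 31.6 CPM (0.46 ± 0.11, adjusted p = 0.0226), and it did not pass without Rb1/Trp53 T7 or Rb1/Trp53/Crebbp T5. Of 18 genes of the Rb family and E2F factors, 0 passed edgeR's quasi-likelihood test, 3 had an unadjusted p under 0.05 and at most 1 passed in any fit.

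Cell cycle genes had few calls but mostly positive fold changes. Of 46 replication genes, 2 rose (Gins2 and Orc6), 40 had a positive fold change and the median was 0.18. Of 70 genes of G2/M and the spindle, 3 rose (Nusap1, Cenpk and Spc24), Cdc25b fell, 59 had a positive fold change and the median was 0.15. Gins2, a subunit of the replicative helicase, was at 5.19 to 7.61 CPM (median 5.61) against 11, 9.47, 11.1 and 8.24 CPM (0.75 ± 0.16, adjusted p = 0.0123), and did not pass without Rb1/Trp53/Crebbp T7. Nusap1, a spindle protein, was at 20.0 to 28.1 CPM (median 25.3) against 35.1, 46.6, 31.6 and 38.3 CPM (0.60 ± 0.12, adjusted p = 0.0104). Cdc25b, a phosphatase that activates cyclin-dependent kinases, was at 186 to 236 CPM (median 204) against 132, 148, 118 and 98.5 CPM (-0.74 ± 0.12, adjusted p = 0.00248). The last 2 had separate groups. Of all genes 3.15% rose. The G2/M list had 1 rise without Rb1/Trp53 T5, T6 or T9 or without T6 or T7 of the Crebbp group, and the replication list had 1 without T5 or T7 of the Crebbp group and 3 without T8.

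Trp53, engineered in both genotypes, and its targets had 2 rises and 5 falls among 34 tested. Gadd45a, a stress sensor, was at 42.8 to 54.1 CPM (median 52.8) against 27.7, 37.0, 33.9 and 25.4 CPM (-0.72 ± 0.12, adjusted p = 0.00296). Trp73, a relative of Trp53, was at 3.43 to 8.06 CPM (median 7.05) against 1.94, 2.78, 2.35 and 2.35 CPM (-1.47 ± 0.25, adjusted p = 0.00449). Neither overlapped. The rises, Rrm2b and Gadd45b, numbered 0 or 1 when any 1 library was left out, and the falls 3 without T5, T7 or T8 of the Crebbp group.

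Among 15 oncofetal and imprinted growth regulators, 0 rose and 4 fell, and those 4 passed without T8 too. Igf2bp2, an RNA-binding protein of fetal growth, was at 3.52 to 5.76 CPM (median 4.90) against 1.94, 0.783, 1.5 and 1.41 CPM (-1.77 ± 0.28, adjusted p = 0.00237). Plagl1, an imprinted zinc finger factor, was at 292 to 369 CPM (median 313) against 196, 255, 205 and 194 CPM (-0.60 ± 0.11, adjusted p = 0.00542). Igf2r (-0.69 ± 0.15, adjusted p = 0.0135) and Lin28a (-0.95 ± 0.21, adjusted p = 0.0153) also fell. Their groups were separate in each case, although Igf2bp2 and Lin28a were at low counts.

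Metabolic lists held scattered changes. Of 38 genes of sterol and fatty acid synthesis, Acss2, Elovl5 and Acaca rose and Acacb fell. The 3 rises came to 1 without T6, T7 or T8 of the Crebbp group or without Rb1/Trp53 T5, T6 or T8, and to 2 without any other library. Acss2, which makes acetyl-CoA from acetate, was at 14.8 to 23.7 CPM (median 21.3) against 31.9, 31.0, 37.1 and 36.1 CPM (0.70 ± 0.12, adjusted p = 0.00479). Acacb, an acetyl-CoA carboxylase of fat oxidation control, was at 35.9 to 59.5 CPM (median 44.1) against 23.5, 25.9, 26.0 and 18.7 CPM (-0.97 ± 0.14, adjusted p = 0.00195). Gpx3, a secreted glutathione peroxidase, fell from 271 to 515 CPM (median 436) to 255, 249.9, 237 and 238 CPM (-0.76 ± 0.15, adjusted p = 0.00907), and Hmox1, heme oxygenase 1, fell as well (-1.57 ± 0.33, adjusted p = 0.0153). Of 76 cytosolic ribosomal protein genes, 0 passed edgeR's quasi-likelihood test and 0 had an unadjusted p under 0.05, with 0 in every other fit tried. Of 76 oxidative phosphorylation genes, Ndufa3 alone rose. Of 39 Hox genes, 0 had counts high enough to test.

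**Figure D4:**
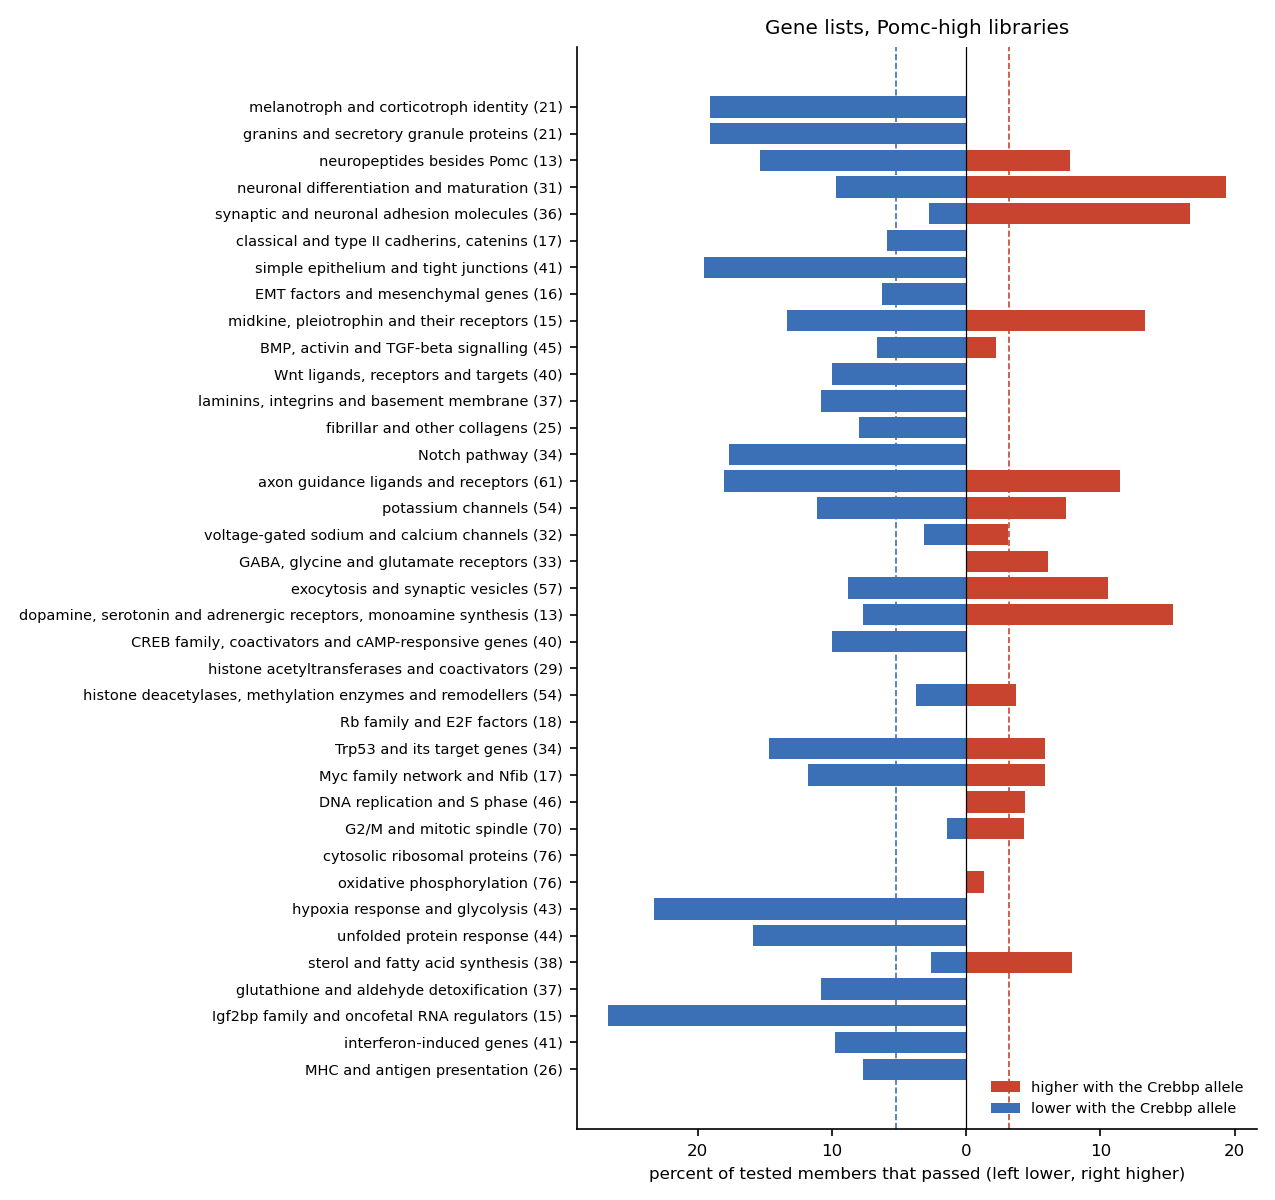
Share of the tested members of each gene list (number tested in brackets) that rose (right, red) or fell (left, blue) with the Crebbp allele, with dashed lines at the shares over all genes, 3.15% and 5.26%. Neuronal differentiation and synaptic adhesion have the longest bars to the right, and the hypoxia list and the oncofetal list the longest to the left.

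A minority of vascular and macrophage markers fell with the Crebbp allele. The summed level of 25 endothelial markers was 645 to 844 CPM in the Rb1/Trp53 group and 432, 519, 382 and 401 CPM in the Crebbp group, with no overlap, and Esm1 made up most of each sum. Of 23 tested, 0 rose and 6 fell (Kdr, Ptprb, Plvap, Procr, Esm1 and Mmrn2), with a median log2 fold change of -0.86. Ptprb, the vascular endothelial tyrosine phosphatase, was at 12.1 to 20.9 CPM (median 15.3) against 5.60, 6.91, 3.10 and 7.85 CPM (-1.40 ± 0.23, adjusted p = 0.00344). Esm1, a proteoglycan of sprouting vessels, was at 447 to 684 CPM (median 582) against 324, 439, 308 and 249.7 CPM (-0.81 ± 0.16, adjusted p = 0.00907). The pan-endothelial genes Pecam1 (-0.74 ± 0.30, adjusted p = 0.14) and Cdh5 (-0.94 ± 0.44, adjusted p = 0.203) did not pass, and for both T8 was inside the range of the other genotype. These marker genes were named after their values were seen.

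Of 25 tested macrophage and microglia markers, 0 rose and 3 fell, namely Cd68, Cd163 and Ptprc, with a median of -1.01. The summed level was 259 to 621 CPM against 241, 168, 137 and 415 CPM, with T8 inside the other group's range. Csf1r was at 4.63 to 9.56 CPM against 4.28, 1.57, 1.5 and 17.7 CPM and did not pass (-0.35 ± 0.61, adjusted p = 0.77). T and B cell genes were near 0, with Cd3e at 0 to 0.0785 CPM in all 10 libraries. Of 41 interferon-induced genes, 0 rose and 4 fell with a median of -0.52, among them Ifi27l2a at 13.2 to 25.6 CPM (median 17.5) against 8.46, 3.20, 6.95 and 4.08 CPM (-1.76 ± 0.27, adjusted p = 0.0029) and Lgals3bp (-0.78 ± 0.14, adjusted p = 0.00621). Of 26 antigen presentation genes, 2 fell, with a median of -0.41, and 1 fell without Rb1/Trp53 T6 or without T5, T6 or T7 of the Crebbp group. Reads of Ifi27l2a and of class I genes such as H2-Q6 may be split among near-identical relatives. Notch3, Plxnd1, Hspg2, Lama5 and the hypoxia list moved in the same direction as the endothelial markers, and the part of vessels and macrophages in those changes was not tested.

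The same contrast was fitted in the 7 libraries whose Calca count exceeded their Pomc count, which share no tumour with the Pomc-high comparison. There 5355 of 14797 genes passed, 36.2%. Of 13632 genes tested in both sets, 1125 passed in the Pomc-high libraries and 4973 in the Calca-high ones, and 447 passed in both. Of those, 321 changed in the same direction, 28.5% of the Pomc-high calls and 6.45% of the Calca-high calls, and 126 in opposite directions. A test of the difference between the 2 sets passed for 3530 of 15432 genes, 22.9%, and for 469 of the genes that passed in the Pomc-high libraries.

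Cwc22 rose alike in both sets, with a log2 fold change of 4.10 ± 0.17 in the Calca-high set and a difference of 0.29 ± 0.16 (adjusted p = 0.215). Il1f9 rose in both as well, by 2.10 ± 0.22 in the Calca-high set, where it was at 2.37, 3.14 and 2.06 CPM in Rb1/Trp53 and 9.08, 11.2, 11.7 and 11 CPM with the Crebbp allele. A difference between the sets was not found for either, which does not show that they changed by the same amount.

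Lama5, Bmp7 and Car9 differed between the sets. Lama5 fell by 2.07 in the Pomc-high set and had a log2 fold change of 0.74 ± 0.33 in the Calca-high set (difference -2.83 ± 0.40, adjusted p = 0.000384). Bmp7 fell in the one and rose in the other, from 1.46, 1.48 and 2.66 CPM to 3.38, 4.58, 12.2 and 6.34 CPM (1.85 ± 0.48), a difference of -4.55 ± 0.71 (adjusted p = 0.0006). Car9 likewise rose in the Calca-high set, from 0.593, 1.36 and 2.16 CPM to 16.5, 18.3, 13.0 and 15.8 CPM (3.55 ± 0.38), a difference of -5.95 ± 0.73 (adjusted p = 0.00012). The sign of the genotype difference was opposite in the 2 sets for Lama5, Bmp7 and Car9. Lama5 overlapped between the genotypes in the Calca-high set, at 31.2 to 61.7 CPM in Rb1/Trp53 and 50.8 to 118 CPM with the Crebbp allele.

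Some rises of the Pomc-high set had small fold changes in the Calca-high set. Sh3gl3 (-0.11 ± 0.35) and Nacad (-0.16 ± 0.22) had Calca-high fold changes near 0, with differences of 2.20 ± 0.38 (adjusted p = 0.0012) and 2.20 ± 0.34 (adjusted p = 0.000561), and Icam5 differed by 1.83 ± 0.32 (adjusted p = 0.00131). Cntn1 rose in both but more in the Calca-high set, from 1.96, 1.21 and 2.66 CPM to 32.4, 35.1, 47.3 and 46.4 CPM (4.40 ± 0.29), a difference of -2.30 ± 0.47 (adjusted p = 0.00391). Crebbp itself had a log2 fold change of 0.60 ± 0.12 in the Calca-high set and differed by -1.08 ± 0.32 (adjusted p = 0.024). That difference did not pass without Rb1/Trp53 T1 (-1.04), Rb1/Trp53 T4 (-1.02), Rb1/Trp53/Crebbp T3 (-0.94) or Rb1/Trp53/Crebbp T5 (-0.99).

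The 6 genes with the smallest adjusted p for the difference between sets, among those that passed in the Pomc-high libraries, were Ryr3, Zfp92, Sncaip, Ildr2, Plekha2 and Ablim1. Ryr3, an intracellular calcium release channel, was at 20.0 to 39.5 CPM (median 30.03) against 12.9, 13.6, 14.3 and 23.2 CPM in the Pomc-high set (-0.94 ± 0.22, adjusted p = 0.0207) and had a log2 fold change of 3.58 ± 0.37 in the Calca-high set. It did not pass in the Pomc-high set without T5 or T7 of the Crebbp group (log2 fold changes -0.85 and -0.90). Zfp92, a zinc finger gene, was at 86.6 to 116 CPM (median 104) against 49.7, 53.7, 61.1 and 48.4 CPM (-0.95 ± 0.10, adjusted p = 0.000241) and at 1.27 ± 0.23 in the Calca-high set. Sncaip, which encodes a partner of alpha-synuclein, fell in the Pomc-high set (-1.11 ± 0.22, adjusted p = 0.0105) and rose in the Calca-high set (2.84 ± 0.37). Ildr2, an immunoglobulin-like receptor, rose in both (0.61 ± 0.12, adjusted p = 0.00949, and 3.57 ± 0.29), far more in the Calca-high set.

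**Figure D5:**
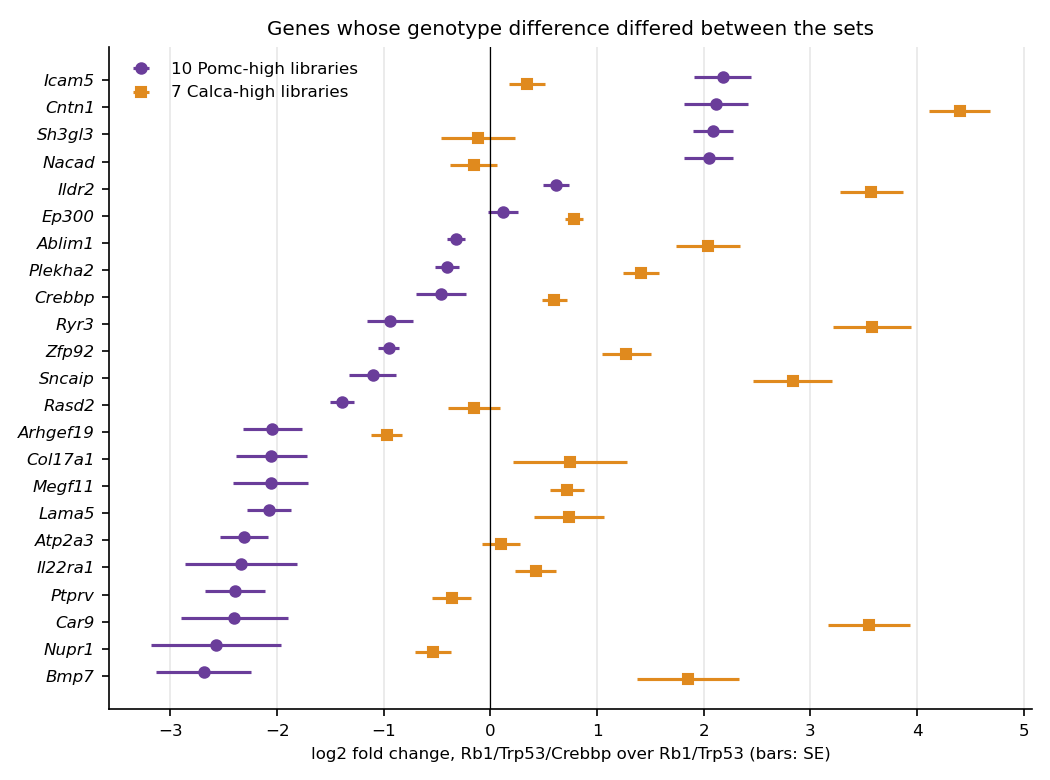
Log2 fold change with its standard error in the 10 Pomc-high and the 7 Calca-high libraries for the 23 examined genes whose genotype difference differed between the sets. The 2 points lie on opposite sides of 0 for Bmp7, Car9, Ryr3, Sncaip and Zfp92, among others, and Cntn1 and Ildr2 lie farther to the right in the Calca-high libraries.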

How the data were processed

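Counts are reads per gene as the authors deposited them, 1 table per tumour with 23284 genes. TRIzol was used for extraction, oligo-dT for selection of mRNA and a NEBNext Ultra kit for the libraries, per the labels' protocols. The submitters' processing notes name bcl2fastq 1.8.2, TopHat2 2.0.12, HTSeq 0.6.1 and the mm9 build. Neither annotation nor strand setting is given in the sources used here, and overlapping and antisense genes cannot be told apart. The 5 summary rows of each table were dropped. Genes held 67.9% to 78.3% of a table's total and multi-mapped reads 8.20% to 16.5%.

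Genes were filtered with edgeR's filterByExpr, scaled by TMM and tested with edgeR 4.0.16 (R 4.3.3), quasi-likelihood, in the 10 Pomc-high libraries, with Benjamini-Hochberg adjustment over 14010 genes. The 7 Calca-high libraries were fitted alone, and an interaction was fitted over all 17. The members, the gene lists and the tests were chosen with earlier results of these data known. Genes were named by rule: the engineered genes and markers, the 14 largest rises and 14 largest falls with at least 5 CPM and separate groups, up to 4 called members of smallest adjusted p per list, the 6 genes of smallest adjusted p for the difference between sets, and the 4 of smallest adjusted p. The script was tested on simulated data. Alternatives were DESeq2 1.42.0, limma 3.58.1 with voom, other filters, a replicate block and each library left out. Promoters came from RefSeq, build GRCm38.p6, matched by symbol. Figures were drawn with matplotlib 3.10.9. A few results are not reported here.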

Additional observations from a re-analysis of the deposited data

Results flagged for a closer look

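In the groups of 4 or 6 libraries, 32 of 304 sets of values had 1 library far from the others, by the gap to its nearest neighbour over the range. The cut-offs flag about 1 in 20 sets of independent, normally distributed values. These sets were CPM of genes chosen from the same libraries, so that rate is no measure of chance here. Of these, 13 were Rb1/Trp53/Crebbp T8, 12 of them on the high side. Rb1/Trp53/Crebbp T8 was high for Nefl (40.5 CPM), Jph3 (31.9), Stmn2 (104), Galntl1 (53.2), Cend1 (45.0), Icam5 (9.58), Nlgn1 (18.4), Hspg2 (15.7), Notch3 (7.54) and Ryr3 (23.2). It was also high for the summed markers of pituicytes and astroglia (1529.9 CPM) and of neurons and oligodendrocytes (1289.9 CPM), and low for Kcnmb4 (11.7). Rb1/Trp53/Crebbp T7 was high for Adm (31.6 CPM), Hk2 (41.7) and red blood cell markers (242). Rb1/Trp53/Crebbp T6 was low for Plxnd1 (12.1 CPM) and high for Plagl1 (255), and T5 was low for Elovl5 (57.8).

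In the Rb1/Trp53 group, T7 was high for Calca (245 CPM), for the summed thyroid, C cell and lung markers (412) and for fat and muscle markers (44.0), and low for Acss2 (14.8). T8 was high for Tac1 (3.09 CPM) and Th (1.32) and low for Lin28a (3.53) and H2-Q6 (3.31). T6 was low for Cspg5 (17.9 CPM), Gadd45a (42.8) and P4ha2 (90.7). T5 was high for Il22ra1 (15.8 CPM) and T2 for Acaca (54.0).

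The genotype difference itself differed between the Pomc-high and Calca-high libraries, by the interaction test at an adjusted p under 0.05, for 23 of 42 genes examined. Over all genes 22.9% passed that test. Of the 42 genes, 6 were named for the smallest adjusted p of the same test, so their passing was fixed in advance. Another 28 were named for the largest differences in the Pomc-high libraries. The share of 23 in 42 is therefore not a result. The log2 difference, Pomc-high minus Calca-high, was positive for Icam5 (1.83), Sh3gl3 (2.20) and Nacad (2.20). It was negative for Crebbp (-1.08), Ep300 (-0.67), Cntn1 (-2.30), Bmp7 (-4.55), Nupr1 (-2.03), Car9 (-5.95), Ptprv (-2.05), Il22ra1 (-2.78) and Atp2a3 (-2.42). It was negative too for Lama5 (-2.83), Megf11 (-2.79), Col17a1 (-2.81), Arhgef19 (-1.08), Zfp92 (-2.23), Ryr3 (-4.53), Ildr2 (-2.97), Sncaip (-3.94), Plekha2 (-1.82), Ablim1 (-2.37) and Rasd2 (-1.25). The difference passed under every setting tried for 19 of the 23, the exceptions being Arhgef19, Crebbp, Ep300 and Nupr1.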

How the results depend on the processing

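With DESeq2, 1917 genes passed, 825 of them higher. Leaving out 1 library gave 752 to 1214 genes, with 284 to 513 higher and 468 to 816 lower, and the fewest were called without Rb1/Trp53/Crebbp T7. Leaving out Rb1/Trp53/Crebbp T8 with Rb1/Trp53 T6 and T8, an alternative chosen after seeing the data, gave 259 higher of 1060, or 24.4% higher against 37.5% in the 10 libraries. Tumour numbers T5 to T8 occur in both genotypes. Over those 8 libraries 715 genes passed without a block, 213 of them higher, and 358 with the replicate block, 90 higher and 268 lower. Deviations from the genotype mean correlated at 0.215, -0.046, -0.126 and -0.132 for the same-numbered tumours T5, T6, T7 and T8. Differently numbered tumours correlated at -0.248 to 0.183, so the T5 value was the highest of all pairs. Whether same-numbered tumours share a batch or an animal is not given, and these correlations cannot decide it. The difference between the Pomc-high and Calca-high sets passed for 2487 to 3849 genes when 1 library was left out. No named gene reversed. The causes of these changes were not tested. The 10 libraries and 8741091 or more counts limit what low genes can show.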

Other observations

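Of 17 tested genes of the Myc family network, Mxd1, a Myc antagonist, rose (0.44) and Mycn (-0.99) and Mlxipl (-0.72) fell on the log2 scale, and the median was -0.13. Without T5 or T7 of the Crebbp group that list had 0 falls. Of 16 tested genes of epithelial-mesenchymal transition, 0 rose and Mmp14, a membrane metalloproteinase, fell (-0.66), with a median of -0.60. Without Rb1/Trp53/Crebbp T8 that list had 3 falls, and it had 0 without Rb1/Trp53 T2, T6, T8 or T9 or without T5, T6 or T7 of the Crebbp group. Of 16 tested pericyte and fibroblast markers, Abcc9 fell (-1.02). Ddx3y, a Y-linked gene, was at 79.5 CPM in Rb1/Trp53 T2.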
